A study of Mus musculus with 8 samples.

Results

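Regulatory T (Treg) cells can hold an inactive form of the cytokine TGF-β on their surface and release it to the cells around them, and they also respond to TGF-β themselves. RNA levels of 10 genes of this system, chosen by name among the 24016 genes of the deposited table, are described here in mouse spleen CD4+ T cells: Lrrc32, Itgb8, Tgfb1, Tgfbr1, Tgfbr2, Tgfbr3, Smad3, Smad7, Ski and Skil. All 10 were found under these symbols and all 10 passed the filter on low values. There were 4 groups of 2 libraries, with replicates called A and B. Monoclonal Treg and monoclonal non-Treg cells, which the labels call NT and the series title ties to nuclear transfer, came from strain NOD.TCRab.FoxP3GFP.Rag-/-. Polyclonal Treg and polyclonal non-Treg cells, called WT, came from strain NOD.FoxP3GFP. Every group therefore shares the NOD background, on which autoimmune diabetes develops spontaneously, and a green fluorescent reporter of the Treg transcription factor Foxp3. Treg cells were the reporter-positive and non-Treg cells the reporter-negative fraction. T cell receptor genes, Rag deficiency and repertoire changed together between the strains, so their parts cannot be told apart. Ages, and whether replicates A and B came from separate animals, are not given in the sources used here, so p-values here speak of the spread among these libraries, which may be technical.

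TGF-β1, the product of Tgfb1, is made with a propeptide that keeps it latent. GARP, the product of Lrrc32, anchors latent TGF-β1 to the Treg surface, and the integrin αvβ8, whose β chain is encoded by Itgb8, frees the active cytokine. Active TGF-β binds the type II receptor Tgfbr2, which recruits and phosphorylates the type I receptor Tgfbr1, while the co-receptor betaglycan (Tgfbr3) presents ligand. The type I receptor then phosphorylates Smad2 and Smad3, which enter the nucleus with Smad4. Smad7 blocks the receptor, and the co-repressors Ski and Skil (SnoN) hold Smad complexes inactive on DNA. In mouse T cells the pathway restrains activation and helps induce Foxp3 outside the thymus.

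The libraries held 14076330 to 19722321 reads assigned to genes, and values are CPM, reads per 1000000 of these. A count of 0 allows up to 3 reads, or 0.152 to 0.213 CPM, which covers counting error only. Foxp3 ranged over 2667 to 2709 CPM in monoclonal Treg, 319 to 405 in monoclonal non-Treg, 2281 to 2349 in polyclonal Treg, and 81.9 to 84.2 CPM in polyclonal non-Treg libraries, which follows the sort, with more Foxp3 RNA in the monoclonal non-Treg than in the polyclonal non-Treg fraction. The 8 T cell markers summed to between 4038 and 6435 CPM in every library. The 9 dendritic cell markers summed to 424 to 470 CPM in the Treg and 1766 to 2021 CPM in the non-Treg libraries of monoclonal mice, against 16.3 to 20.3 CPM in polyclonal Treg and 38.3 to 45.7 CPM in polyclonal non-Treg libraries. The 11 monocyte and macrophage markers summed to 247 to 347, 538 to 640, 45.0 to 46.0 and 45.6 to 48.9 CPM in the same order of groups.

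Promoter sequences of 3 genes are shown because the genes stand for the directions described below: Itgb8 and Tgfbr1 were higher in Treg cells of both strains, and Tgfbr2 was lower. Each is the 250 bases before the annotated start, taken from RefSeq on GRCm38.p6 and written 5′ to 3′ on the gene's own strand, with capitals marking matches to a Smad box (CAGAC) or a GC box (GGGCGG) on either strand.
Itgb8, chr12:119238277-119238526, minus strand, Smad box at -196: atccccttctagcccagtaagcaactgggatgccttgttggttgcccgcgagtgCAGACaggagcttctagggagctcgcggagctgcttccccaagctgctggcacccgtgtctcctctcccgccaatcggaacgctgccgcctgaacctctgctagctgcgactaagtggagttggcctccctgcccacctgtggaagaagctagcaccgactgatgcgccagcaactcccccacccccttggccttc
Tgfbr1, chr4:47352972-47353221, plus strand, GC boxes at -133 and -95: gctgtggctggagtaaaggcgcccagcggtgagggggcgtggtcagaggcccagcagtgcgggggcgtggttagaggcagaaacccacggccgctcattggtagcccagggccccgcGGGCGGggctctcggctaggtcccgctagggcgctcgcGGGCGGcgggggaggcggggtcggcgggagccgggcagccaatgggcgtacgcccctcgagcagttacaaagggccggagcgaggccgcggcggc
Tgfbr2, chr9:116175364-116175613, minus strand, Smad box at -160: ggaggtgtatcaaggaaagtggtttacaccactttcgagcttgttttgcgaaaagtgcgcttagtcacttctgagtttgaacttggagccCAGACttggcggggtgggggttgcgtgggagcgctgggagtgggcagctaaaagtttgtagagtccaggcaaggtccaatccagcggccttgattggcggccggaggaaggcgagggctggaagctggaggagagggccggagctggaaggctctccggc

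RefSeq windows were matched for 6 of the 10 genes, and Lrrc32, Tgfbr3, Smad7 and Skil are named only. The 4 motifs searched on both strands were the Smad box CAGAC, the AP-1 site TGACTCA, the forkhead site GTAAACA and the GC box GGGCGG. Among 32851 windows of all genes, 42.2% held a Smad box, 4.46% an AP-1 site, 3.17% a forkhead site and 32.7% a GC box, so the Smad box matches of Itgb8 and Tgfbr2 are of a common kind. GC boxes numbered 5 in the windows of Tgfb1 and of Ski and 2 in that of Smad3, and none of these 3 windows held a Smad box. Bases that are G or C made up 62.4% of the Itgb8 window, 74.8% of the Tgfbr1 window shown, 58.4% of the Tgfbr2 window and 87.6% of the Ski window, against a median of 52.4% over all windows. A second window listed for Tgfbr1, not printed, held a Smad box at -203 and no GC box, with 52.8% G or C. A match describes the letters and is not evidence that a factor binds there.

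**Figure D1:**
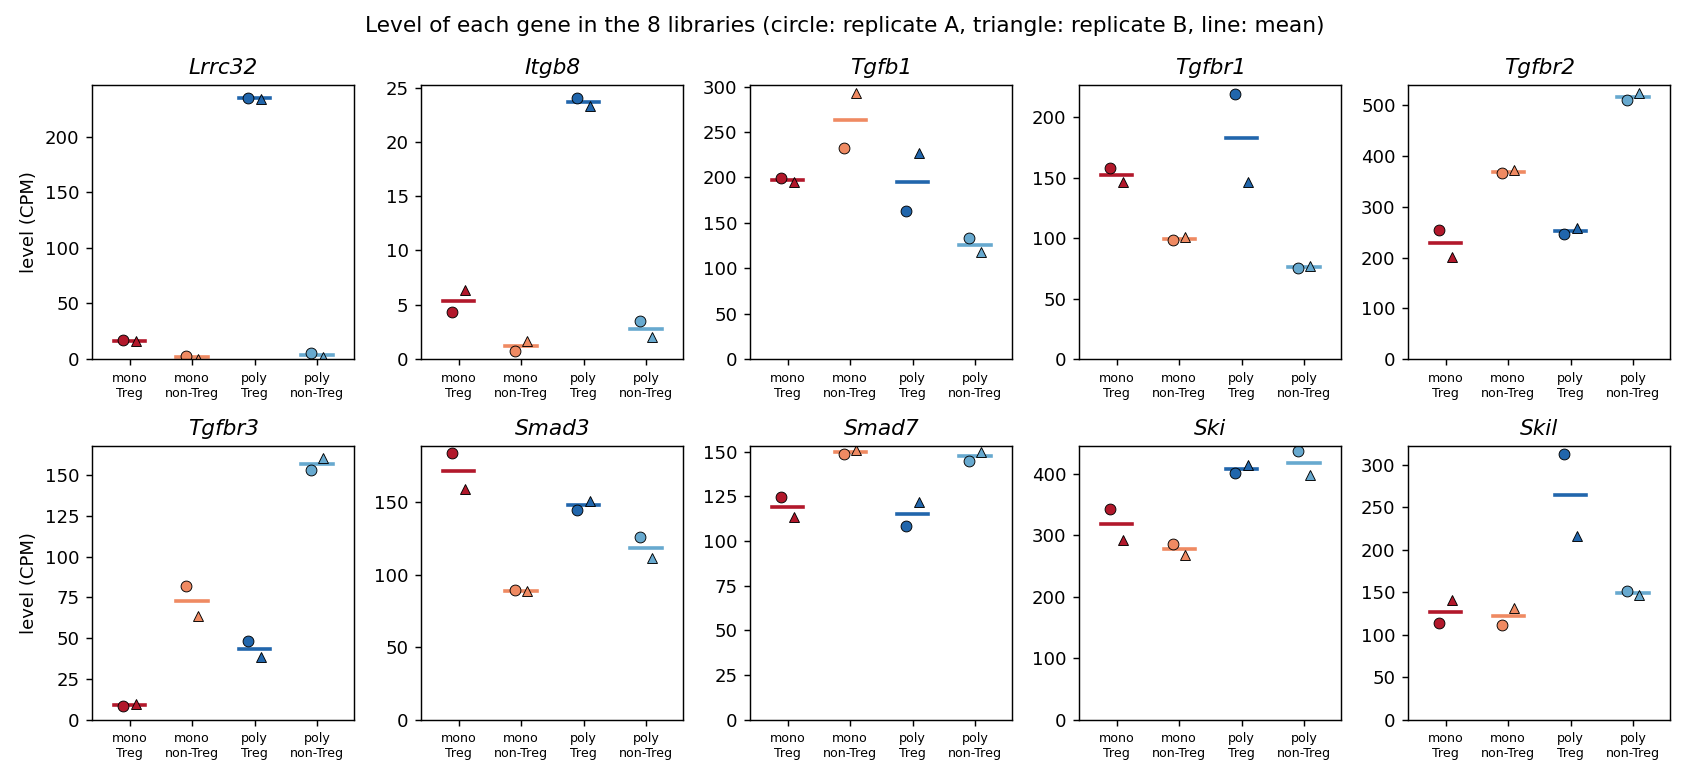
CPM of each of the 10 genes in the 8 libraries on linear axes, 1 panel per gene, with points for replicates A and B and a bar for the mean of each group. Lrrc32 spans 0.129 to 235 CPM and separates the polyclonal Treg libraries from all others, while Smad7 stays between 108 and 151 CPM.

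Lrrc32 (NM_001113379, chr7:105642732-105650340 on mm9, plus strand) had 17.02 and 15.9 CPM in monoclonal Treg libraries, against 2.88 and 0.129 CPM in monoclonal non-Treg libraries, where replicate A held 52 reads and replicate B held 2. In polyclonal Treg libraries it had 235 and 234 CPM, against 5.25 and 1.61 CPM in polyclonal non-Treg libraries. The order of group means was polyclonal Treg, monoclonal Treg, polyclonal non-Treg, monoclonal non-Treg, and the non-Treg groups at the end of this order overlapped while all other neighbours were apart. Group means spanned 155.7-fold, the widest range of the 10 genes. Monoclonal Treg cells averaged 16.5 ± 0.772 CPM and monoclonal non-Treg cells 1.51 ± 1.95 CPM (SD, n = 2 each), a 10.9-fold ratio. The log2 fold change was 3.06 ± 0.49 (SE), with a limma adjusted p of 0.000468. Here and below, fold changes were computed on log2(CPM + 1), p-values were adjusted over all 12881 genes tested, and a gene was called at an adjusted p under 0.05. In polyclonal mice the ratio was 68.3-fold, with 234 ± 0.367 CPM for Treg and 3.43 ± 2.57 CPM for non-Treg cells, and the log2 fold change was 5.86 ± 0.49 (limma adjusted p = 3.15e-06). Both calls held under every alternative tried, namely another pseudocount, filter, tool or scaling, fewer libraries in the fit, each library left out, or a replicate block. The change of Treg against non-Treg cells is called the Treg effect below. In bulk libraries, fewer cells with a transcript and less of it per cell cannot be told apart.

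Monoclonal Treg cells had 14.2-fold less Lrrc32 RNA than polyclonal Treg cells, a log2 fold change of -3.75 ± 0.49 (limma adjusted p = 7.42e-05) that was called under every alternative. Between monoclonal and polyclonal non-Treg cells the change was -0.95 (95% confidence interval -2.01 to 0.11, limma adjusted p = 0.217), and without monoclonal non-Treg replicate A it was -1.84 and called (limma adjusted p = 0.0225). The Treg effect was smaller in monoclonal than in polyclonal mice by 2.80 ± 0.70 on the log2 scale (difference -2.80, limma adjusted p = 0.0223). This difference kept its sign but lost its call under 8 of 15 alternatives, among them DESeq2 (-2.66, adjusted p = 0.422), edgeR (-2.76, adjusted p = 0.174) and leaving out monoclonal non-Treg replicate A (-1.91, adjusted p = 0.101). It rests on non-Treg levels of between 2 and 83 reads per library. Lrrc32 is also known from platelets and endothelial cells. The 10 platelet and megakaryocyte markers summed to between 48.9 and 50.3 CPM in the polyclonal Treg libraries, where Lrrc32 was highest, and to 215 to 299 CPM in monoclonal Treg libraries. Their sums in non-Treg libraries were 234 to 241 CPM in monoclonal and 145 to 159 CPM in polyclonal mice. In both polyclonal Treg libraries 5 of them (Ppbp, Gp1ba, Gp6, Treml1 and Tubb1) were at 0 reads, Pf4 had 0.213 and 0.0507 CPM, Itga2b 10.8 and 8.67 CPM, and Itgb3 38.5 and 40.0 CPM. Itgb3 made up most of the sum in every library, so the sums differed between groups mainly through this gene. Its levels were 213 and 293 CPM for the monoclonal Treg libraries, where 7 of the 10 markers, Pf4 and Ppbp among them, were at 0 reads. For non-Treg libraries Itgb3 stood at 225 and 233 CPM (monoclonal) or 145 and 135 CPM (polyclonal). The 8 stromal and endothelial markers summed to between 220 and 224 CPM in polyclonal Treg and 233 to 296 CPM in monoclonal Treg libraries. In non-Treg libraries they summed to 319 to 363 CPM in monoclonal and 277 to 294 CPM in polyclonal mice. In both polyclonal Treg libraries 4 of these (Cdh5, Kdr, Col3a1 and Pdgfra) were at 0 reads and Pecam1, also made by lymphocytes, had 216 and 220 CPM. The part of such cells in the Lrrc32 result was not tested.

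Itgb8 (NM_177290, chr12:120401276-120476749 on mm9, minus strand), whose promoter is the Itgb8 sequence printed above, followed the same order of Treg groups at lower levels. Monoclonal Treg libraries had 4.34 and 6.32 CPM and monoclonal non-Treg libraries 0.776 and 1.68 CPM. Polyclonal Treg libraries had 24.1 and 23.3 CPM and polyclonal non-Treg libraries 3.48 and 2.07 CPM. Polyclonal Treg libraries were highest, and no neighbouring groups in the order overlapped. The Treg effect was 1.52 ± 0.40 on the log2 scale in monoclonal mice (4.35-fold, limma adjusted p = 0.0119) and 2.74 ± 0.40 in polyclonal mice (8.55-fold, limma adjusted p = 0.000408). The monoclonal value was no longer called when monoclonal non-Treg replicate A (1.22, adjusted p = 0.111) or monoclonal Treg replicate B (1.29, adjusted p = 0.0589) was left out, nor when libraries were scaled to the 4 CD3 chain genes of the T cell receptor complex (CD3 scaling; 1.14, adjusted p = 0.0506). Monoclonal Treg cells had 4.45-fold less Itgb8 RNA than polyclonal Treg cells (log2 fold change -1.98 ± 0.40, limma adjusted p = 0.00222), and this call held under every alternative. The difference of the Treg effects, -1.22 with a 95% confidence interval of -2.42 to -0.02, was not called (limma adjusted p = 0.203), nor was the change between non-Treg cells (-0.77, limma adjusted p = 0.214).

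Tgfb1 (NM_011577, chr7:26472021-26490015 on mm9, plus strand), which encodes the cytokine itself, did not follow Lrrc32. Its levels were, in the monoclonal Treg libraries, 200 and 195 CPM, in the monoclonal non-Treg libraries 232 and 293, in the polyclonal Treg libraries 162 and 226, and in the polyclonal non-Treg libraries 134 and 118 CPM. Monoclonal non-Treg libraries were highest, polyclonal non-Treg libraries lowest, and the Treg groups overlapped between them. In monoclonal mice Treg cells averaged 197 ± 3.58 CPM and non-Treg cells 263 ± 42.9 CPM (log2 fold change -0.40 ± 0.16, limma adjusted p = 0.0905, not called, though called under 5 of 16 alternatives). In polyclonal mice Treg cells averaged 194 ± 45.2 CPM and non-Treg cells 126 ± 11.0 CPM (0.61 ± 0.16, limma adjusted p = 0.0344). The polyclonal call was lost under 11 of 16 alternatives, among them leaving out polyclonal Treg replicate B (0.37, adjusted p = 0.158). The difference of the Treg effects was -1.01 ± 0.23 (limma adjusted p = 0.0141) and lost its call under 4 of 15 alternatives, with the highest adjusted p, 0.132, without monoclonal non-Treg replicate B (-0.84).

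Between strains, monoclonal non-Treg cells had 2.09-fold more Tgfb1 RNA than polyclonal non-Treg cells (log2 fold change 1.05 ± 0.16, limma adjusted p = 0.000271), a call that held under every alternative. In Treg cells the change was 0.04 (95% confidence interval -0.31 to 0.39, limma adjusted p = 0.891), and its sign turned with CD3 scaling (-0.05). Dendritic cells and macrophages also make TGF-β1. Of the 9 dendritic cell markers, 8 were called higher between these non-Treg groups, in the monoclonal one, and so were 6 of the 11 monocyte and macrophage markers, with the summed levels given above. In monoclonal non-Treg libraries the dendritic markers Itgax and Siglech had 961 and 1234 CPM and 254 and 177 CPM, against 10.4 and 10.9 CPM and 10.9 and 7.42 CPM in polyclonal non-Treg libraries. The part of these cells in the Tgfb1 result was not tested.

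The 3 receptors moved in different directions. Tgfbr1 (NM_009370, chr4:47366177-47427796 on mm9, plus strand), the type I receptor, had, in the monoclonal Treg libraries, 158 and 146 CPM, in the monoclonal non-Treg libraries 98.1 and 101, in the polyclonal Treg libraries 220 and 146, and in the polyclonal non-Treg libraries 75.2 and 76.7 CPM. All 4 Treg libraries lay above all 4 non-Treg libraries, and the Treg groups overlapped. Treg over non-Treg, the log2 fold change was 0.61 ± 0.17 in monoclonal mice (1.53-fold, limma adjusted p = 0.0165) and 1.23 ± 0.17 in polyclonal mice (2.41-fold, limma adjusted p = 0.000277), called there under every alternative. The monoclonal call was lost under 6 of 16 alternatives, and with CD3 scaling the value was 0.04 (adjusted p = 0.915). Between the non-Treg groups the change of 0.38 was not called (limma adjusted p = 0.138), but was under 4 of 16 alternatives. Monoclonal and polyclonal Treg cells differed by -0.23 (95% confidence interval -0.60 to 0.13), not called, and this difference turned to 0.06 without polyclonal Treg replicate A. Without polyclonal Treg replicate B it was -0.53 and called (adjusted p = 0.0114), and the difference of the Treg effects, -0.62 and not called (limma adjusted p = 0.127), was then -0.91 and called (adjusted p = 0.00448).

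Tgfbr2 (NM_009371, chr9:115996813-116084481 on mm9, minus strand), the ligand-binding type II receptor, ran the other way. The levels were, in the monoclonal Treg libraries, 255 and 202 CPM, in the monoclonal non-Treg libraries 368 and 372, in the polyclonal Treg libraries 248 and 258, and in the polyclonal non-Treg libraries 511 and 524 CPM. Every non-Treg library exceeded every Treg library. In Treg against non-Treg cells it changed by -0.70 ± 0.13 in monoclonal mice (1.62-fold lower, limma adjusted p = 0.00109) and -1.03 ± 0.13 in polyclonal mice (2.05-fold lower, limma adjusted p = 0.000108), and both calls held under every alternative. The difference of the effects was 0.33 (95% confidence interval -0.06 to 0.71, limma adjusted p = 0.293), and monoclonal and polyclonal Treg cells differed by -0.16 (-0.43 to 0.12, limma adjusted p = 0.411). Monoclonal non-Treg cells had 1.40-fold less than polyclonal non-Treg cells (-0.48 ± 0.13, limma adjusted p = 0.0140), but the sign turned with CD3 scaling (0.02), edgeR gave -0.41 with an adjusted p of 0.0546, and leaving out any of the 4 non-Treg libraries ended the call (adjusted p between 0.0979 and 0.132). The per-length ratio of Tgfbr2 to Tgfbr1, from RPKM (CPM divided by the length of the deposited transcript in kilobases), was 1.90 and 1.63 in the Treg libraries and 4.44 and 4.37 in the non-Treg libraries of monoclonal mice. In polyclonal Treg libraries the ratio was 1.33 and 2.09, against 8.03 and 8.09 for polyclonal non-Treg libraries, so in each strain the type II receptor RNA exceeded the type I receptor RNA by less in Treg cells.

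Tgfbr3 (NM_011578, chr5:107535589-107718614 on mm9, minus strand), the co-receptor betaglycan, was the most variable receptor. Its levels were, in the monoclonal Treg libraries, 8.34 and 9.49 CPM, in the monoclonal non-Treg libraries 82.3 and 63.4, in the polyclonal Treg libraries 48.5 and 38.5, and in the polyclonal non-Treg libraries 153 and 160 CPM. No libraries of different groups overlapped, and the means spanned 17.6-fold. Treg cells had 8.17-fold less than non-Treg cells in monoclonal mice (log2 fold change -2.89 ± 0.19, limma adjusted p = 3.37e-07) and 3.603-fold less in polyclonal mice (-1.83 ± 0.19, limma adjusted p = 2.96e-05). Monoclonal Treg cells had 4.88-fold less than polyclonal Treg cells (-2.16 ± 0.19, limma adjusted p = 1.86e-06). These 3 calls held under every alternative. Monoclonal non-Treg cells had 2.15-fold less than polyclonal non-Treg cells (-1.11 ± 0.19, limma adjusted p = 0.000732), a call lost only with CD3 scaling (-0.61, adjusted p = 0.109) among the 16 alternatives. The Treg effect was more negative in monoclonal mice by -1.05 ± 0.27 (limma adjusted p = 0.0278), and that call was lost under 6 of 15 alternatives, with the highest adjusted p, 0.151, without monoclonal non-Treg replicate A (-0.87).

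**Figure D2:**
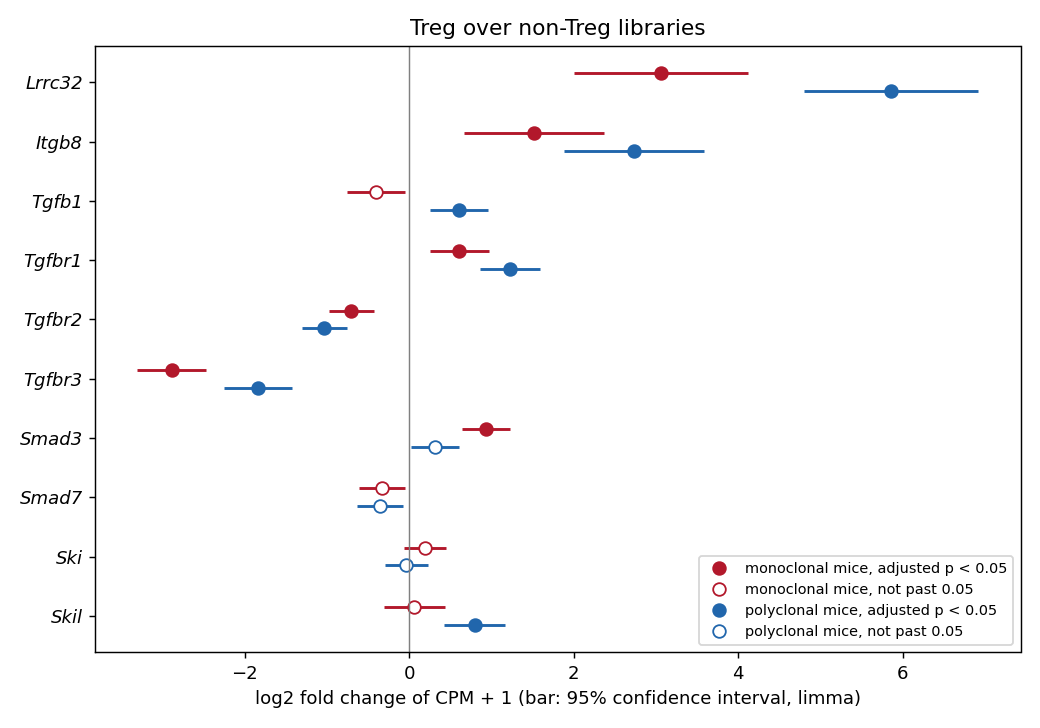
Log2 fold change of Treg over non-Treg cells for the 10 genes on log2(CPM + 1), monoclonal above polyclonal for each gene. Points show estimates, bars the 95% confidence interval, and filled points an adjusted p under 0.05. Lrrc32 reaches 3.06 in monoclonal and 5.86 in polyclonal mice, and Tgfbr3 -2.89 and -1.83.

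Smad3 (NM_016769, chr9:63494574-63605801 on mm9, minus strand), which carries the signal to the nucleus, had 184 and 159 CPM in monoclonal Treg libraries, against 89.6 and 88.7 CPM in monoclonal non-Treg libraries. Polyclonal Treg libraries had 145 and 151 CPM and polyclonal non-Treg libraries 126 and 112 CPM. The 4 groups did not overlap, with monoclonal Treg highest and monoclonal non-Treg lowest. The Treg effect was 0.93 ± 0.13 in monoclonal mice (1.93-fold, limma adjusted p = 0.000187), lost only with CD3 scaling (0.37, adjusted p = 0.213) among the 16 alternatives. In polyclonal mice it was 0.32 ± 0.13 and was not called (limma adjusted p = 0.211), and the difference of the effects, 0.62 (95% confidence interval 0.21 to 1.03), was not called either (limma adjusted p = 0.0587), but was under 3 of 15 alternatives. Monoclonal against polyclonal Treg cells changed by 0.21 (95% confidence interval -0.08 to 0.50), not called. Monoclonal non-Treg cells had 1.33-fold less Smad3 RNA than polyclonal non-Treg cells (-0.41 ± 0.13, limma adjusted p = 0.0473), a call lost under 10 of 16 alternatives and turned in sign with CD3 scaling (0.09).

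Smad7 (NM_001042660, chr18:75527019-75555588 on mm9, plus strand), the inhibitory Smad whose own gene is switched on by the pathway, varied least, with group means spanning 1.30-fold. It had, in the monoclonal Treg libraries, 124 and 113 CPM, in the monoclonal non-Treg libraries 149 and 151, in the polyclonal Treg libraries 108 and 122, and in the polyclonal non-Treg libraries 145 and 150 CPM. All 4 Treg libraries lay below all 4 non-Treg libraries, but the log2 fold changes of -0.33 ± 0.13 in monoclonal and -0.35 ± 0.13 in polyclonal mice were not called (limma adjusted p = 0.0783 and 0.135). The monoclonal value was called under 5 of 16 alternatives, edgeR (-0.42, adjusted p = 0.0342) and DESeq2 (-0.39, adjusted p = 0.0269) among them. Between strains the Smad7 changes were 0.05 (95% confidence interval -0.23 to 0.33) in Treg and 0.03 (-0.25 to 0.31) in non-Treg cells, and neither was called. The per-length ratio of Smad3 to Smad7 was 1.29 and 1.22 in monoclonal Treg and 0.525 and 0.512 in monoclonal non-Treg libraries. For polyclonal mice it was 1.17 and 1.08 in Treg libraries, against 0.759 and 0.651 in non-Treg libraries. It was above 1 in all 4 Treg libraries and below 1 in all 4 non-Treg libraries.

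Ski (NM_011385, chr4:154528184-154596644 on mm9, minus strand) had, in the monoclonal Treg libraries, 343 and 293 CPM, in the monoclonal non-Treg libraries 286 and 269, in the polyclonal Treg libraries 402 and 415, and in the polyclonal non-Treg libraries 438 and 399 CPM. It separated the strains rather than Treg from non-Treg cells: every polyclonal library exceeded every monoclonal library. Monoclonal non-Treg cells had 1.51-fold less than polyclonal non-Treg cells (log2 fold change -0.59 ± 0.12, limma adjusted p = 0.00254), a call lost under 3 of 16 alternatives, CD3 scaling (-0.09, adjusted p = 0.812) and leaving out monoclonal non-Treg replicate B or polyclonal non-Treg replicate A (adjusted p = 0.0508 and 0.0648). Monoclonal Treg cells had 1.29-fold less than polyclonal Treg cells (-0.37 ± 0.12, limma adjusted p = 0.0407), lost under 10 of 16 alternatives. The Treg effects were 0.19 (95% confidence interval -0.07 to 0.45) in monoclonal and -0.03 (-0.29 to 0.23) in polyclonal mice, and neither was called (limma adjusted p = 0.281 and 0.9504), nor was their difference of 0.23 (limma adjusted p = 0.467).

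Skil (NM_011386, chr3:30993980-31021845 on mm9, plus strand), the relative of Ski that the pathway itself induces and degrades, had, in the monoclonal Treg libraries, 113 and 141 CPM, in the monoclonal non-Treg libraries 112 and 132, in the polyclonal Treg libraries 313 and 216, and in the polyclonal non-Treg libraries 151 and 147 CPM. The polyclonal Treg libraries were highest, every polyclonal library exceeded every monoclonal library, and the monoclonal groups overlapped. Its Treg effect was 0.06 (95% confidence interval -0.31 to 0.43, limma adjusted p = 0.842) in monoclonal mice and 0.80 ± 0.17 in polyclonal mice (1.77-fold, limma adjusted p = 0.00942), a call lost under 5 of 16 alternatives. The difference of the effects was -0.73 ± 0.24 and not called (limma adjusted p = 0.0793), though it was called under 4 of 15 alternatives. Between the non-Treg groups the change was -0.30 (95% confidence interval -0.67 to 0.07), not called. Monoclonal Treg cells had 2.08-fold less than polyclonal Treg cells (-1.03 ± 0.17, limma adjusted p = 0.000591), and this call held under every alternative.

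Across the 10 genes, 4 were called higher and 2 lower in the monoclonal Treg effect, where 24.4% of all genes tested were called (10.8% higher, 13.6% lower). In the polyclonal Treg effect 5 were called higher and 2 lower, where 7.9% of all genes were called (4.63% higher, 3.28% lower). The difference of the effects called 0 higher and 3 lower (9.2% of all genes, 3.64% higher and 5.56% lower), monoclonal against polyclonal Treg cells 0 higher and 5 lower (24.2%, 12.1% each way), and monoclonal against polyclonal non-Treg cells 1 higher and 4 lower (19.4%, 12.1% higher and 7.35% lower). The median log2 fold change of the 10 genes was 0.13, 0.46, -0.68, -0.30 and -0.45 in these 5 comparisons, beside -0.02, 0.00, -0.03, -0.03 and -0.07 over all genes tested. The comparisons share libraries with each other, so their values are given side by side only. Of the 8 T cell markers, 4 were called higher and 1 lower in the monoclonal Treg effect, and 3 higher and 0 lower in the difference. Between strains, 6 were called lower in monoclonal non-Treg and 3 in monoclonal Treg cells, with 0 higher in both. In monoclonal mice Cd3e had 716 and 768 CPM in Treg against 454 and 406 CPM in non-Treg libraries. Cd3g had 704 and 660 against 432 and 369. Cd3d (234 and 267 against 240 and 184) and Cd247 (338 and 311 against 344 and 272) differed less. Cd4 was lower in Treg libraries (827 and 792 against 1257 and 1360 CPM). Scaling each library to its CD3 genes moved the median of all genes by -0.53 in the monoclonal Treg effect, -0.55 in the difference and 0.47 between the non-Treg groups. Under it, 1 of the 10 genes was higher and 4 were lower in the monoclonal Treg effect, and 2 were higher and 0 lower between the non-Treg groups.

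**Figure D3:**
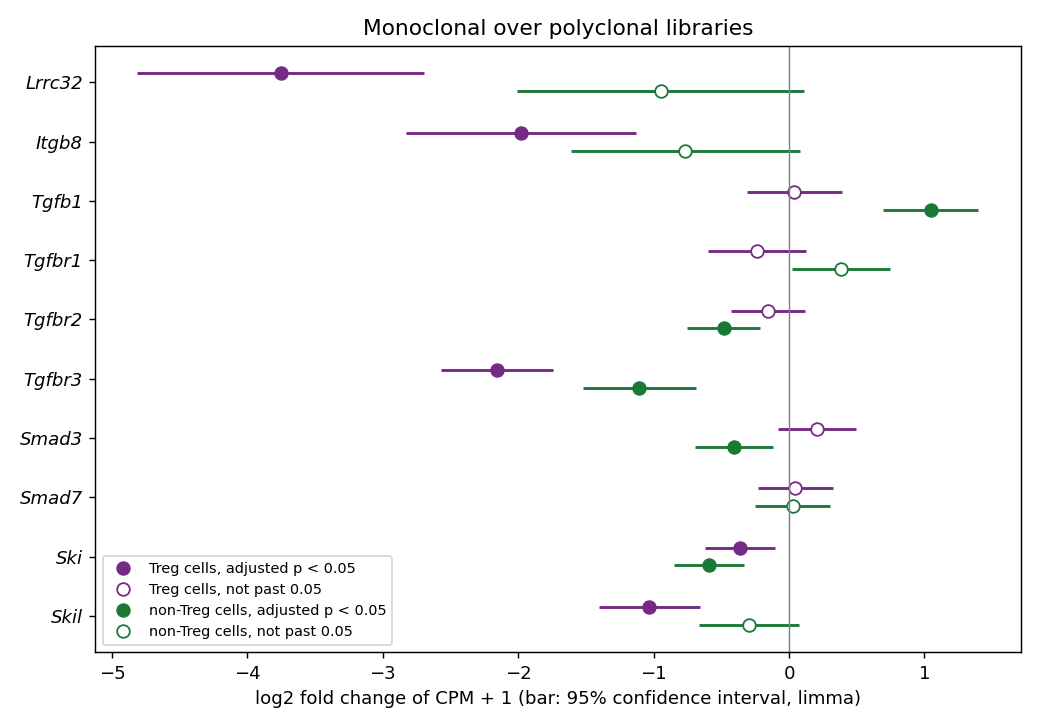
Log2 fold change of monoclonal over polyclonal cells for the 10 genes on log2(CPM + 1), Treg above non-Treg for each gene. Points show estimates, bars the 95% confidence interval, and filled points an adjusted p under 0.05. In Treg cells Lrrc32 (-3.75), Tgfbr3 (-2.16) and Itgb8 (-1.98) lie farthest below 0, and in non-Treg cells Tgfb1 lies at 1.05.

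Per length, which allows levels of different genes to be set side by side, the makeup of the pathway RNA differed between the Treg groups most in Lrrc32. In monoclonal Treg cells Tgfb1 had 94.5 RPKM, Ski 58.3, Tgfbr2 47.8, Smad3 33.8, Tgfbr1 26.9, Smad7 26.8, Skil 18.04, Lrrc32 4.32, Itgb8 1.73 and Tgfbr3 1.48 RPKM. In polyclonal Treg cells Tgfb1 had 93.3 RPKM and Lrrc32, below Tgfb1 and Ski only, 61.5 RPKM. The per-length ratio of Tgfb1 to Lrrc32 was 21.5 and 22.3 in monoclonal Treg libraries, against 1.27 and 1.77 in polyclonal Treg libraries. Lrrc32 was therefore close to its cargo in RNA level only in the polyclonal Treg libraries, since in the non-Treg libraries the ratio was at least 46.5. In monoclonal non-Treg cells Tgfb1 had 126 RPKM, Tgfbr2 77.4 and Lrrc32 0.395 RPKM, and in polyclonal non-Treg cells Tgfbr2 led with 108 RPKM, followed by Ski with 76.7 and Tgfb1 with 60.4 RPKM.

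**Figure D4:**
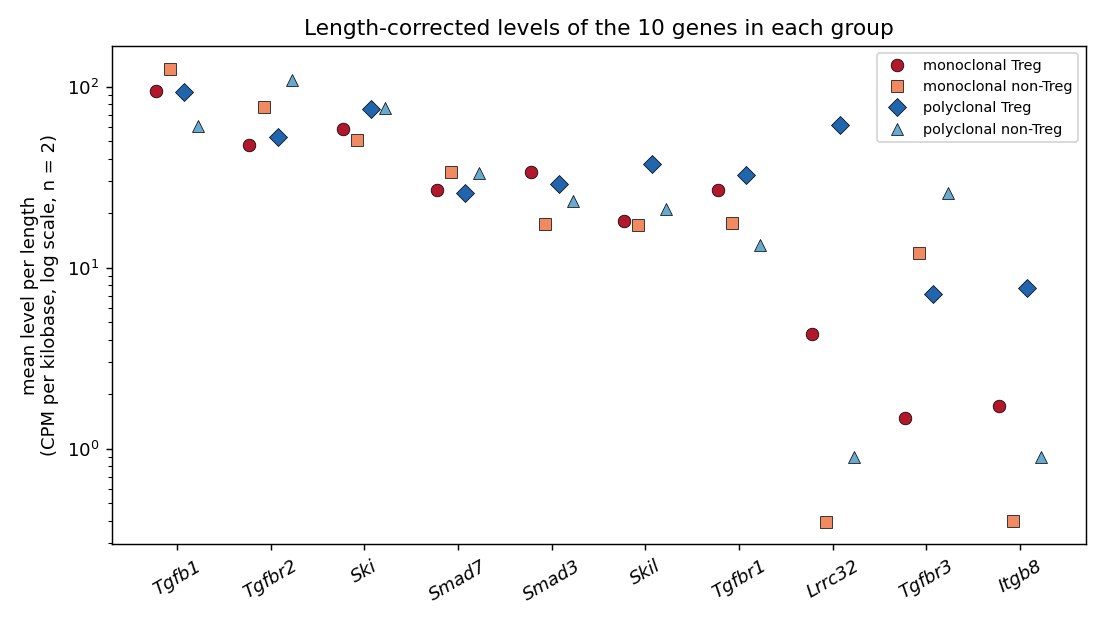
Mean RPKM (CPM per kilobase of transcript, n = 2) of the 10 genes in each group on a log10 axis. Lrrc32 lies at 4.32 RPKM in monoclonal Treg and 61.5 RPKM in polyclonal Treg cells, while Tgfb1 lies at 94.5 and 93.3 RPKM.

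The wider pathway was read from 95 further genes in 6 lists, of which 81 passed the filter. In the monoclonal Treg effect 23 of these were called higher and 19 lower, in the polyclonal Treg effect 11 and 9, in the difference 10 and 8, between monoclonal and polyclonal Treg cells 20 and 17, and between the non-Treg groups 12 and 13. In the order just given, the share called was 51.9%, 24.7%, 22.2%, 45.7% and 30.9%, beside 24.4%, 7.9%, 9.2%, 24.2% and 19.4% of all genes tested. Median log2 fold changes were 0.06, 0.04, -0.03, -0.01 and -0.07, beside -0.02, 0.00, -0.03, -0.03 and -0.07 over all genes. The lists were chosen with results of these data known, so neither their shares nor their directions are independent evidence. Of the 74 changes of single genes that the naming rule takes from these lists, 46 were called under every alternative.

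Among 12 tested genes for ligands, storage and activation of latent TGF-β, 4 were called higher and 2 lower in the monoclonal Treg effect (median log2 fold change 0.33) and 1 each way in the polyclonal one (0.09). In monoclonal mice Treg cells had more Nrp1, a co-receptor for TGF-β and marker of Treg cells (260 against 69.1 CPM, log2 fold change 1.91), Mmp14, a membrane protease that can free TGF-β (30.7 against 6.73 CPM, 2.02), and the integrin chain Itgb1 (1.55). They had less Nrros, which anchors latent TGF-β1 on myeloid cells (240 against 588 CPM, -1.29). In polyclonal mice Nrp1 was higher in Treg cells (295 against 92.5 CPM, 1.66) and the ligand gene Tgfb3 lower (1.23 against 9.25 CPM, -2.19), though the Tgfb3 call was lost without polyclonal non-Treg replicate A (adjusted p = 0.1003). The Treg effect of Itgb1 was larger in monoclonal mice by 1.803 (limma adjusted p = 2.64e-05), a call that held under every alternative. That of Mmp14 was larger by 1.90 (limma adjusted p = 0.0129), but its call was lost under 4 of 15 alternatives, with adjusted p up to 0.0992. With CD3 scaling the 6 calls of the list in the monoclonal Treg effect kept their split of 4 and 2, while its median was -0.22. Nrros, the myeloid counterpart of Lrrc32, stood higher in the monoclonal non-Treg group than in the polyclonal one (588 against 157 CPM, 1.90). In Treg cells it averaged 240 CPM in monoclonal and 125 CPM in polyclonal mice, the reverse of the order of Lrrc32 in Treg cells. The part of the dendritic cells and macrophages whose marker sums are given above was not tested. Mmp9, a protease, was higher in monoclonal cells of both kinds, at 16.4 against 1.34 CPM in Treg and 10.5 against 0.956 CPM in non-Treg cells. In the same comparisons 6 and 5 of the 7 neutrophil markers in the table were called higher, with sums of 249 to 1380 CPM in the Treg and 68.6 to 444 CPM in the non-Treg libraries of monoclonal mice, against 16.2 to 49.2 CPM in polyclonal Treg and 14.6 to 37.2 CPM in polyclonal non-Treg libraries. Their part in the Mmp9 result was not tested. Mmp14 was higher in monoclonal than in polyclonal Treg cells (1.22), except that without monoclonal Treg replicate B it was not called (adjusted p = 0.0619). Between the non-Treg groups Itgb1 was lower in monoclonal cells (381 against 1119 CPM, -1.55), and Ltbp2, which binds the extracellular matrix, was called higher, at 4.42 CPM against 0 reads in both polyclonal libraries.

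Among 11 tested receptors and co-receptors of the wider TGF-β family, 4 were called higher and 3 lower in the monoclonal Treg effect (median -0.13) and 1 each way in the polyclonal one (-0.16). Bmpr2, the type II receptor for BMPs, was higher in Treg cells of both strains (log2 fold change 1.16 in monoclonal and 1.10 in polyclonal mice), and Acvrl1, a type I receptor best known from endothelium, was lower in both (-1.99 and -2.09). The Bmpr2 calls were lost with CD3 scaling in monoclonal mice (0.60, adjusted p = 0.0979) and without polyclonal non-Treg replicate B in polyclonal mice (0.82, adjusted p = 0.0961), and the polyclonal Acvrl1 call without polyclonal non-Treg replicate A (adjusted p = 0.0610). Bambi, a pseudoreceptor that blocks TGF-β signalling, had 9.05 CPM in monoclonal Treg cells against 1.08 CPM in monoclonal non-Treg cells (2.37) and 0.817 CPM in polyclonal Treg cells (2.51), of which the Treg effect lost its call with edgeR (adjusted p = 0.0528) and without monoclonal non-Treg replicate B (adjusted p = 0.0619). Bmpr1a, a type I BMP receptor, had 34.4 CPM in monoclonal Treg cells against 6.21 CPM in monoclonal non-Treg cells (2.31) and 8.005 CPM in polyclonal Treg cells (1.98). With CD3 scaling 2 of the 11 were called higher and 5 lower in the monoclonal Treg effect (median -0.67). The differences of the Treg effects were 2.52 for Bambi (limma adjusted p = 0.0319), 1.803 for Bmpr1a (0.0318) and 1.10 for Fkbp1a (0.0123), whose product binds the type I receptor. These calls were lost under 10, 8 and 6 of 15 alternatives. In the difference, 0 of the 11 genes were called without the filter. With CD3 scaling 0 were called higher and 1 lower, and Bambi, Bmpr1a and Fkbp1a were not called. Fewer genes were also called without any 1 of the monoclonal libraries, polyclonal Treg replicate B or polyclonal non-Treg replicate B. Among 13 tested Smads and partners, 1 was called higher and 4 lower in the monoclonal Treg effect (median -0.18) and 0 higher and 1 lower in the polyclonal one (-0.05). The 5 monoclonal calls fell to 1 without monoclonal Treg replicate B, monoclonal non-Treg replicate A or monoclonal non-Treg replicate B, and to 3 with a pseudocount of 0.25 CPM, and CD3 scaling gave 0 higher and 9 lower (median -0.74). The 1 polyclonal call was lost without the filter, with CD3 scaling, with only the libraries compared, and without polyclonal Treg replicate B or any 1 of the 4 non-Treg libraries. Smad1, which serves BMP receptors, was reduced in monoclonal Treg cells relative to their non-Treg counterparts (14.1 against 35.6 CPM, -1.32), as was the Smad anchor Zfyve9 (2.07 against 7.95 CPM, -1.54), which between the non-Treg groups was higher in monoclonal cells (7.95 against 0.258 CPM, 2.84). The Smad1 call was lost without each of those 3 libraries (adjusted p up to 0.0902), and the Zfyve9 call in the monoclonal Treg effect under 6 of 16 alternatives, edgeR among them (adjusted p = 0.305).

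Among 18 tested inhibitors and ubiquitin enzymes, 1 was called higher and 7 lower in monoclonal than in polyclonal Treg cells (median -0.44). These 8 calls fell to 3 without polyclonal Treg replicate A, with CD3 scaling and with only the libraries compared, and to 5 without the filter or without any 1 of the 4 non-Treg libraries. Nedd4l, a ubiquitin ligase for Smads and receptors, had 10.7 CPM in monoclonal Treg cells against 28.7 CPM in polyclonal Treg cells (-1.48) and 49.5 CPM in monoclonal non-Treg cells (-2.24), and its Treg effect differed between the strains by -2.23 (limma adjusted p = 0.00686), not called without the filter (adjusted p = 0.0507) or without monoclonal non-Treg replicate B (adjusted p = 0.0719). Ldlrad4, an inhibitor that TGF-β induces in other cells, had 17.6 CPM in monoclonal and 47.2 CPM in polyclonal Treg cells (-1.39), and the co-repressor Tgif2 had 10.3 and 20.8 CPM (-1.03), a call lost under 11 of 16 alternatives. In the monoclonal Treg effect 4 of the 18 were called higher and 3 lower (median 0.05), and in the polyclonal one 2 and 1 (0.08). The 7 monoclonal calls became fewer without any 1 of the monoclonal libraries or without polyclonal non-Treg replicate B. Counted anew with CD3 scaling, 0 of the 18 were called higher and 7 lower (median -0.49). The 3 polyclonal calls fell to 1 without polyclonal non-Treg replicate A. Pmepa1, a TGF-β target and inhibitor, had 40.5 CPM in polyclonal Treg against 12.3 CPM in polyclonal non-Treg cells (1.64), and the co-repressor Tgif1 58.3 against 27.6 CPM (1.04), a call lost without polyclonal non-Treg replicate A (adjusted p = 0.0543). For the deubiquitinase Usp11 the difference of the Treg effects was -1.21 (limma adjusted p = 0.0159), a call lost under 6 of 15 alternatives (adjusted p up to 0.125).

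Genes known to rise with TGF-β in T cells or other cells were called higher in 8 and lower in 4 of 19 tested in the monoclonal Treg effect (median 0.83), and in 6 and 2 in the polyclonal one (0.59). The 12 monoclonal calls fell to 6 without monoclonal non-Treg replicate B, and with CD3 scaling 5 were higher and 4 lower (median 0.31). The 8 polyclonal calls fell to 4 without polyclonal non-Treg replicate A and to 5 without polyclonal non-Treg replicate B. Itgae, which encodes the integrin αE chain CD103, had 192 CPM in monoclonal Treg against 32.1 CPM in monoclonal non-Treg cells (2.53) and 107 against 8.69 CPM in polyclonal mice (3.44). Foxp3, which defined the sort, was in this list, with Treg effects of 2.90 in monoclonal and 4.78 in polyclonal mice and a difference of -1.89 (limma adjusted p = 2.42e-05) that was called under every alternative. Ccr8, a chemokine receptor of Treg cells, had 4.14 CPM in monoclonal Treg cells against 27.3 CPM in polyclonal Treg cells (-2.48), and polyclonal non-Treg cells had 3.25 CPM (2.71 for the polyclonal Treg effect). Junb, an AP-1 subunit, was higher in monoclonal cells of both kinds (2.28 in Treg and 1.56 in non-Treg cells), and the cell cycle inhibitor Cdkn1a in Treg cells (31.3 against 3.65 CPM, 2.90). The Junb call between the non-Treg groups was lost with only the libraries compared (limma adjusted p = 0.0534). Between the non-Treg groups Itgae was higher in monoclonal cells (1.76), beside a Foxp3 change of 2.10. The Treg effects of Bhlhe40 and Klf10, both transcription factors, differed between the strains by -1.35 (limma adjusted p = 0.00845) and 1.21 (limma adjusted p = 0.0134), calls lost under 3 and 4 of 15 alternatives. The number of genes of this list called in the difference, 5, fell to 3 without the filter, to 2 without monoclonal non-Treg replicate A or either polyclonal non-Treg library, and to 1 without monoclonal non-Treg replicate B. Tgfbi, a matrix protein that macrophages also make, had 62.2 CPM in Treg cells, against 218 CPM in non-Treg cells, of monoclonal mice (-1.89), against 2.51 CPM in polyclonal Treg (4.23) and 1.16 CPM in polyclonal non-Treg cells (6.71), with a difference of -2.48 (limma adjusted p = 0.0218), a call lost under 8 of 15 alternatives. The call of the monoclonal Treg effect was lost under 4 of 16. Tgfbi moved with the dendritic and macrophage marker sums given above, whose part was not tested.

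Genes known to fall with TGF-β in T cells went both ways: 4 of 11 tested were called higher and 3 lower in the monoclonal Treg effect (median 0.51), 3 and 3 in the polyclonal one (-0.63), and 5 and 2 between monoclonal and polyclonal Treg cells (0.58). The 7 monoclonal calls became fewer without monoclonal non-Treg replicate B. With CD3 scaling the median of the 11 genes in the monoclonal Treg effect was -0.06. The 6 polyclonal calls fell to 1 without polyclonal non-Treg replicate B and to 2 without polyclonal non-Treg replicate A, with CD3 scaling and with only the libraries compared. Klrg1, a receptor of terminally differentiated lymphocytes, had 551 CPM in monoclonal Treg against 66.1 CPM in monoclonal non-Treg cells (3.12) and 32.1 against 2.26 CPM in polyclonal mice (3.34), so it was also higher in monoclonal cells of both kinds (4.08 in Treg and 4.31 in non-Treg cells). The granzyme gene Gzmb had 44.7 CPM in monoclonal Treg cells against 7.84 CPM in monoclonal non-Treg (2.39) and 6.59 CPM in polyclonal Treg cells (2.74), and Gzma had 7.52 CPM in monoclonal Treg cells against 0.401 CPM in polyclonal Treg cells (2.62). Gata3, the Th2 factor also used by Treg cells, had 473 CPM in monoclonal Treg cells against 113 CPM in monoclonal non-Treg (2.06) and 159 CPM in polyclonal Treg cells (1.57). In polyclonal Treg cells the Th1 factor Tbx21 (16.6 against 44.4 CPM, -1.38) and the perforin gene Prf1 (6.70 against 16.9 CPM, -1.23) were lower than in polyclonal non-Treg cells. The Prf1 call was lost under 8 of 16 alternatives, and that of Tbx21 without polyclonal non-Treg replicate B (adjusted p = 0.0861). Monoclonal non-Treg cells had less of the cytokine gene Ifng (0.938 against 14.6 CPM, -3.08) and of the T-box factor Eomes (7.18 against 21.4 CPM, -1.54) than polyclonal non-Treg cells, and more of the interleukin-12 receptor chain Il12rb2 (14.7 against 4.57 CPM, 1.48), which was lower in monoclonal Treg cells (3.99 CPM, -1.69). Between the non-Treg groups the calls of Eomes and Il12rb2 were each lost under 4 of 16 alternatives (adjusted p up to 0.168 and 0.203), and the Il12rb2 call in monoclonal Treg cells was lost without monoclonal non-Treg replicate B (adjusted p = 0.115). The difference of the Treg effects was 1.58 for Gata3 (limma adjusted p = 0.000174) and -1.18 for the growth regulator Myc (limma adjusted p = 0.00331), both called under every alternative. For S1pr1, a receptor for lymphocyte egress, it was 1.03 (limma adjusted p = 0.000924), lost with CD3 scaling (0.44, adjusted p = 0.332). For Gzmb it was 1.97 (limma adjusted p = 0.0493), a call lost under 12 of 15 alternatives.

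The genes whose level followed Lrrc32 most closely over the 8 libraries, among the 10635 genes whose mean log2 level reached 2, were Tnfrsf9 (Pearson r of 0.974), Ssh1 (0.972), Sh3bgrl2, Capn3 and 1600014C10Rik (0.967 each). Tnfrsf9, the activation receptor 4-1BB, had 44.1 CPM in Treg cells against 7.48 CPM in non-Treg cells of monoclonal mice, and 173 CPM in Treg cells against 18.6 CPM in non-Treg cells of polyclonal mice. For Itgb8 the closest were Capn3 (0.993), Pou2f2 (0.985) and Ssh1 (0.982). Among the 10 genes, r with Lrrc32 was 0.952 for Itgb8, 0.798 for Tgfbr1, 0.780 for Skil, -0.852 for Smad7 and -0.05 for Tgfb1. The 8 libraries form 4 groups of 2, so these values describe the order of 4 groups and carry no test.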

How the data were processed

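RNA of sorted spleen CD4+ T cells was selected with poly-dT beads, made into stranded libraries and sequenced as 50 bp single-end reads, per the labels' protocols. Tools listed in the submitters' processing notes, with no role stated, are STAR 2.4.1a, HOMER 4.7, edgeR (version not listed), Trimmomatic 0.33, CASAVA 1.8.2 and FastQC 0.10.1, and the build is mm9. The authors deposited CPM for 24016 genes, each with 1 RefSeq transcript, its length and its mm9 position. From the deposited CPM, whole reads were recovered, since 100% of values were whole multiples of 1 read within 0.01 read. The main test ran on the deposited CPM, and count tests on the recovered reads served as alternatives.

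The 12881 genes that reached 1 CPM in 2 or more libraries were fitted with limma 3.58.1 (R 4.3.3) on log2(CPM + 1), with a trend and robust spread and a mean for each of the 4 groups (4 residual degrees of freedom, median prior 10). The pseudocount of 1 CPM understates changes of low genes. All p-values are 2-sided and adjusted by Benjamini-Hochberg across every gene tested. Alternatives were a pseudocount of 0.25 CPM, no filter, edgeR 4.0.16 and DESeq2 1.42.0 on the recovered reads, TMM and CD3 scaling, only the libraries compared, each library left out, and a replicate block. RPKM was computed from the deposited lengths. The treatment of reads that match several genes is not stated in the labels.

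The 10 genes, the pathway lists and the marker lists were chosen with earlier results of these data known, and are not independent support for any direction. From each pathway list and comparison, up to 4 called genes with the largest log2 fold change of at least 1 in size are named. Of the genes this rule takes, 1 is not reported here. The 5 genes closest to Lrrc32 and the 3 closest to Itgb8 are also named.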

Additional observations from a re-analysis of the deposited data

Results flagged for a closer look

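The Treg effect differed between monoclonal and polyclonal mice for 3 of the 10 genes by the test of the difference itself in limma, in which 9.2% of all genes were called. For Lrrc32 the difference of the log2 Treg effects, monoclonal minus polyclonal, was -2.80 (adjusted p = 0.0223), with Treg effects of 3.06 and 5.86. For Tgfb1 it was -1.01 (adjusted p = 0.0141), with Treg effects of -0.40 and 0.61, of which only the polyclonal effect was called, a call kept under 5 of 16 alternatives. Tgfb1 averaged 197 and 194 CPM in monoclonal and polyclonal Treg cells, against 263 and 126 CPM in the non-Treg cells. For Tgfbr3 the difference was -1.05 (adjusted p = 0.0278), with Treg effects of -2.89 and -1.83. Without the filter on low values none of the 3 was called, at adjusted p-values of 0.105 for Lrrc32, 0.0650 for Tgfb1 and 0.0644 for Tgfbr3.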

How the results depend on the processing

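Of 26 calls among the 10 genes, 13 held under every alternative and 13 did not. Of 790 values recomputed for single genes, 669 kept their direction and their side of the threshold, 72 lost a call, 25 gained one and 24 changed sign. The number of the 10 genes called in the difference of the Treg effects (3) was 0 without the filter, and between the non-Treg groups (5) it was 3 with edgeR and 2 with CD3 scaling. Leaving out each library in turn gave 4 to 8 in the monoclonal Treg effect, 5 to 7 in the polyclonal one, 0 to 6 in the difference, 4 to 6 between Treg groups and 2 to 6 between non-Treg groups. The labels do not say whether a letter, A or B, marks a shared mouse or day, and the A minus B differences of Treg and non-Treg libraries correlated at 0.0969 in monoclonal and 0.0752 in polyclonal mice across genes, so pairing was not assumed. All 7 neutrophil markers in the table were higher in replicate A than in replicate B in both monoclonal fractions (S100a8 in Treg libraries at 208 CPM in A and 23.3 CPM in B). With a replicate block, 6, 7, 4, 5 and 4 of the 10 genes were called in the 5 comparisons in the order given in the report.

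Over all genes, the calls of 3143 (monoclonal Treg effect), 1018 (polyclonal), 1185 (difference), 3116 (between Treg groups) and 2505 (between non-Treg groups) became 756 for the difference without the filter, 4838, 562 and 1945 for the monoclonal effect, the polyclonal effect and the Treg groups with CD3 scaling, and 673, 1721 and 4413 for the polyclonal effect, the Treg groups and the non-Treg groups with only the libraries compared. Without 1 library they ran from 1306 to 3774, 429 to 1231, 361 to 1658, 2416 to 3583 and 1373 to 3227. With CD3 scaling the share of calls that were higher was 8.495% in place of 44.4% in the monoclonal effect, 4.95% in place of 39.6% in the difference, and 95.3% in place of 62.2% between non-Treg groups.

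With CD3 scaling, Skil (-0.51) and Ski (-0.38) changed sign in the monoclonal Treg effect, Smad7 (-0.57), Ski (-0.36) and Tgfbr2 (-0.26) in the difference, Tgfb1 (-0.046) and Smad7 (-0.039) between Treg groups, and Tgfbr2 (0.019), Smad3 (0.091) and Skil (0.20) between non-Treg groups. With edgeR, Skil in the monoclonal Treg effect (-0.022) and Smad7 in the difference (-0.042) turned, and with DESeq2 Smad7 in the difference (-0.013). Leaving out 1 library turned Skil in the monoclonal Treg effect (range -0.095 to 0.22), Smad7 in the difference (-0.066 to 0.11), Ski in the polyclonal Treg effect (-0.099 to 0.033) and, between Treg groups, Tgfb1 (-0.20 to 0.28), Tgfbr1 (-0.53 to 0.056), Tgfbr2 (-0.32 to 0.010) and Smad7 (-0.039 to 0.13). The cause of these changes was not tested. Depth limits Lrrc32 in non-Treg cells, where 1 library held 2 reads.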
